A study of Homo sapiens with 4 samples.

Results

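Claudins and the tight junction proteins that hold them were described across sorted fractions of Huh7, an established human hepatocellular carcinoma (HCC) line. The genes were chosen by name, from a list of 10: CLDN1, CLDN2, CLDN3, CLDN4, CLDN6, CLDN7, CLDN14 and CLDN15, TJP1 and F11R. Of these 10, 9 were measured, among 18377 genes in all. F11R, which encodes a junctional adhesion molecule, had no probe with its symbol in the platform annotation and is not analysed here.

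The 4 groups were CD133+ and CD133- Huh7 cells from one flow cytometry sort, and ALDH+ and ALDH- Huh7 cells from another. CD133 is the surface protein made from PROM1, ALDH stands for aldehyde dehydrogenase, and the series frames marker-positive cells as cancer stem cells. Each fraction was hybridised to 1 Affymetrix array, so no difference has a replicate check and none is given a p-value. Values are log2 expression, and a difference is the positive fraction minus the negative fraction of the same sort. Every group comes from this same cell line, and no treatment is named in the labels.

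Tight junctions seal the space between neighbouring epithelial cells. Claudins span the membrane and set what can pass: some tighten the seal, and others form channels for ions and water. Scaffold proteins such as ZO-1, made from TJP1, tie the claudins to the actin cytoskeleton. In liver, tight junctions of hepatocytes close the bile canaliculus.

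The arrays had medians between 4.92 and 5.04, and pairs of arrays correlated at 0.982 to 0.989. PROM1 was at 9.0 in CD133+ and 5.32 in CD133- cells, in the direction of the labels. In the ALDH sort PROM1 was at 7.11 in ALDH+ and 8.39 in ALDH- cells, and ALDH1A1 was at 11.1 in both fractions. ALDH2 was higher in ALDH+ cells by 0.10, and ALDH1A3, a dim gene, by 0.45 (5.13 against 4.69). ALDH3A1 (-0.04) and ALDH1B1 (-0.14) were lower. Differences this small and mixed did not check the labels. Every direction given for the ALDH sort rests on those labels and would turn if they were exchanged. All 9 measured hepatocyte genes, ALB and AFP among them, were above 4.98, the median of the whole table, which serves here as the floor of expression. In that list AHSG (fetuin) alone reached 2-fold, lower in CD133+ cells with a difference of -1.58. TTR fell just short of 2-fold in the other direction, higher in CD133+ cells by 0.995, and differed by -0.58 in the ALDH sort. Of the 9 genes, 7 were lower and 2 higher in CD133+ cells, and 4 were lower and 5 higher in ALDH+ cells. Of all genes above the floor, 57.1% were lower in CD133+ and 51.5% lower in ALDH+ cells. Of the marker lists for other cell types, 2 of 6 measured leukocyte genes, 4 of 8 fibroblast and stellate genes and 4 of 8 endothelial genes were above that floor in at least 1 sort. PTPRC, a defining leukocyte gene, was below it on every array.

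CLDN4 and CLDN7 stood apart from the other members: both were higher in CD133+ than in CD133- cells and lower in ALDH+ than in ALDH- cells. Each of these 4 differences was close to 2-fold. With the ALDH labels exchanged, both would be higher in both positive fractions. CLDN1, CLDN3, CLDN6, CLDN15 and TJP1 differed by less than 1.5-fold in either sort. In the ALDH sort all 9 measured members were lower in the positive fraction, and the 7 besides CLDN4 and CLDN7 had differences between -0.66 and -0.06.

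CLDN4 encodes a claudin of tight epithelia that limits passage of cations. Its level was 5.75 in CD133+, 4.83 in CD133-, 5.43 in ALDH+ and 6.52 in ALDH- cells. ALDH- cells held the highest level, and the CD133- array alone lay below the floor. The difference was 0.92 in the CD133 sort, a 1.89-fold higher value. Set against the floor in place of the dim array, CLDN4 was at least 1.70-fold higher. In the ALDH sort the difference was -1.08, a 2.12-fold lower value in ALDH+ cells with both arrays above the floor.

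CLDN7 encodes a claudin found at tight junctions and along the sides of epithelial cells, where it binds the adhesion molecule EpCAM. Its level was 6.65 in CD133+, 5.67 in CD133-, 6.33 in ALDH+ and 7.31 in ALDH- cells, above the floor on every array. The order of the 4 arrays was that of CLDN4, with ALDH- cells highest and CD133- cells lowest. CLDN7 was 1.98-fold higher in CD133+ cells (difference 0.99) and 1.97-fold lower in ALDH+ cells (difference -0.98). By rank, CLDN7 was 86th and CLDN4 107th from the highest among 11591 genes above the floor in the CD133 sort. In the ALDH sort CLDN4 was 115th and CLDN7 163rd from the lowest among 11879 genes.

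**Figure D1:**
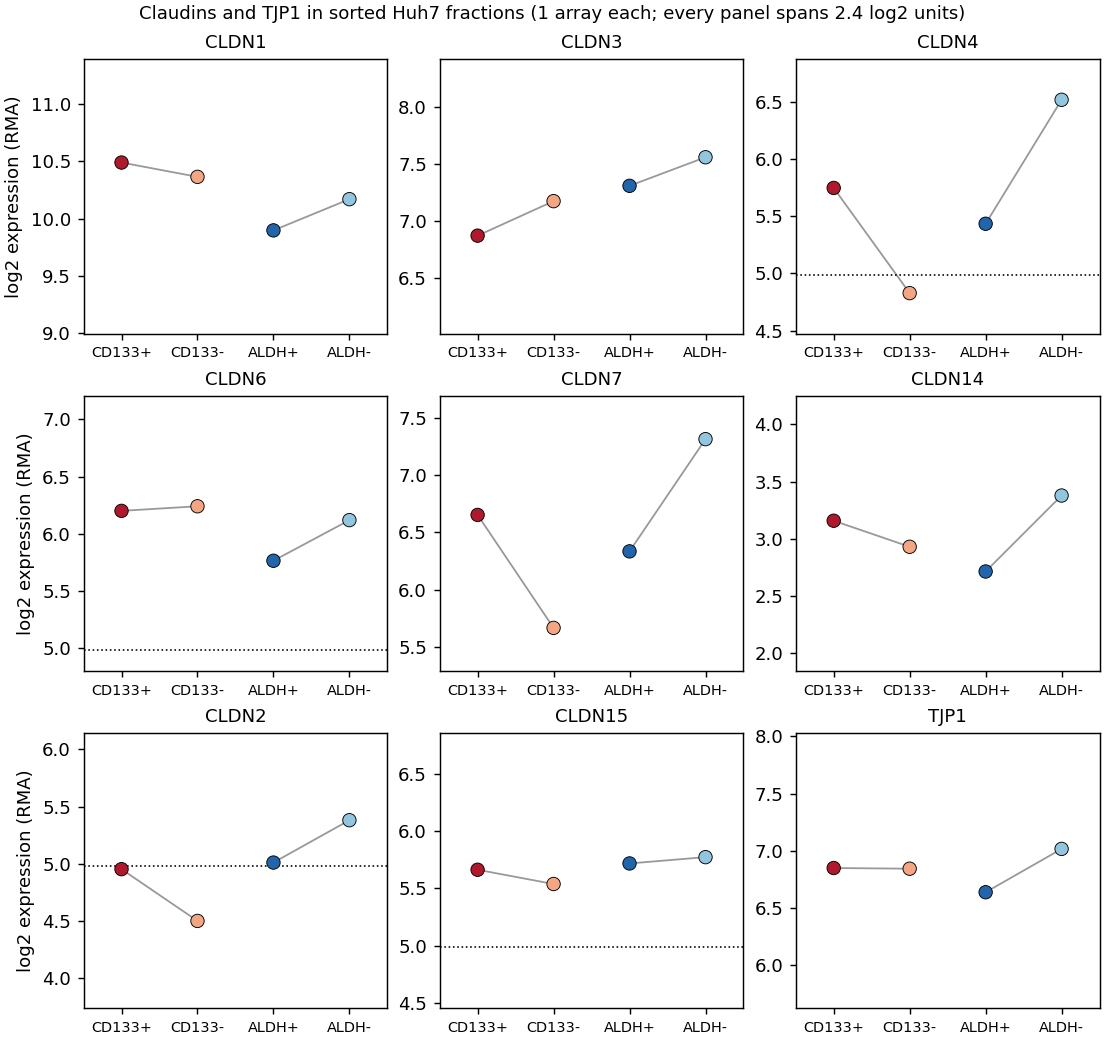
Log2 expression (RMA, y axis) of the 9 measured members on the 4 arrays (x axis), 1 point per array, with a grey line joining the fractions of a sort and a dotted line at the floor of 4.98 where it falls in the panel. Every panel covers the same height on the log2 scale. CLDN4 and CLDN7 show the same zigzag, with CD133- lowest and ALDH- highest, while CLDN1, CLDN15 and TJP1 stay within 0.59, 0.23 and 0.38 over the 4 arrays.

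The counts of members were read against those of all genes. Of the 9 measured members, 7 were above the floor for CD133 and 8 for ALDH. At 2-fold, 0 of the 7 were higher in CD133+ cells, where 0.716% of genes above the floor were, and 0 were lower, where 0.164% were. In ALDH+ cells 1 of the 8, CLDN4, was at least 2-fold lower, against 1.3% of genes, and 0 were higher, against 0.278%. At 1.5-fold, CLDN4 and CLDN7 were the 2 members higher in CD133+ cells (2.74% of genes) and 0 were lower (1.89%). The same 2 were lower in ALDH+ cells (6.6% of genes), and 0 were higher (4.15%). CLDN14 also differed by more than 1.5-fold in the ALDH sort but lay below the floor on every array. Of the 7 members above the floor in both sorts, 2 were higher in CD133+ and lower in ALDH+ cells at 1.5-fold in each, a pattern that 1.23% of 11293 genes showed. Having 1 array per fraction limits how precisely any of these values is known.

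Both sorts are bulk measurements, in which fewer cells that express a gene and less RNA per cell cannot be told apart. Genes known from the intestinal epithelium that were above the floor had the same direction as CLDN4 and CLDN7. Their list was chosen with earlier results of these data known, so the likeness is not independent support. Of 12 listed, 11 were above the floor, 11 of them higher in CD133+ and 11 lower in ALDH+ cells, with FABP2 below the floor throughout. Of all genes above the floor, 42.9% were higher in CD133+ and 51.5% lower in ALDH+ cells. SI, LCT, CDH17, MUC13, DPP4 and SLC26A3 were at least 2-fold different in both sorts. Of all genes above the floor, 0.716% were 2-fold higher in CD133+ and 1.3% 2-fold lower in ALDH+ cells. LCT and SLC26A3 lay below the floor in CD133- cells. Set against the floor, they were at least 2.38-fold and 2.83-fold higher in CD133+ cells. Over the whole list of 12, the summed linear signal was 3584 in CD133+, 1510 in CD133-, 2161 in ALDH+ and 5074 in ALDH- cells, the array order of both claudins. In the cholangiocyte list 5 of 6 genes above the floor were higher in CD133+ cells, against the same 42.9%. In ALDH+ cells 4 of 6 were lower, against 51.5%, which for so few genes is near that share. KRT19, a biliary keratin, differed by 1.34 and -0.44. EPCAM, whose protein binds claudin 7, differed by 1.10 in the CD133 sort and was just over 2-fold lower in ALDH+ cells. The list's summed signal was 2867 in CD133+, 2169 in CD133-, 2009 in ALDH+ and 2493 in ALDH- cells. This was not the array order of the claudins, since CD133+ was highest and ALDH+ lowest. The part of these genes' cells in the claudin values was not tested.

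Because CLDN4 and CLDN7 had nearly the same profile, their promoter windows are shown, with that of CLDN3 for contrast. CLDN3 is the next protein-coding gene to CLDN4 on chromosome 7 in RefSeq, with 0 protein-coding genes between them, and had another profile. Each window runs from 250 bases before to 50 after a RefSeq start (build GRCh38.p14), 5′ to 3′ on the gene's strand. Capitals mark matches, on either strand, to the E-box CAGGTG, which Snail and ZEB repressors are known to bind, and to the GC box GGGCGG of Sp1. RefSeq holds a pair of starts for CLDN7, and both are shown. The windows are chr7:73830746-73831045 (plus strand) for CLDN4, chr17:7263164-7263463 (minus strand) for the outer CLDN7 start, chr17:7262429-7262728 (minus strand) for the inner one and chr7:73770221-73770520 (minus strand) for CLDN3.
CLDN4: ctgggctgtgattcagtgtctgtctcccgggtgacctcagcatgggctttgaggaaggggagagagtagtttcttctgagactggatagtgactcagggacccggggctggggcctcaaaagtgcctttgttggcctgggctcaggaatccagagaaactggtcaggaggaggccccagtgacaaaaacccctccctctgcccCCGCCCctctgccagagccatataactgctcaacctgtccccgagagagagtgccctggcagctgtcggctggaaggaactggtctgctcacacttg
CLDN7, outer start: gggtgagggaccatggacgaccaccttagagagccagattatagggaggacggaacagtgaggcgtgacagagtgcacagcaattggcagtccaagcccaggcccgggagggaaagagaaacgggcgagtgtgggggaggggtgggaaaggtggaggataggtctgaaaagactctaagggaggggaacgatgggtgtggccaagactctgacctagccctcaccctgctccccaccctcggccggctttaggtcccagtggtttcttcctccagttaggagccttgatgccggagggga
CLDN7, inner start: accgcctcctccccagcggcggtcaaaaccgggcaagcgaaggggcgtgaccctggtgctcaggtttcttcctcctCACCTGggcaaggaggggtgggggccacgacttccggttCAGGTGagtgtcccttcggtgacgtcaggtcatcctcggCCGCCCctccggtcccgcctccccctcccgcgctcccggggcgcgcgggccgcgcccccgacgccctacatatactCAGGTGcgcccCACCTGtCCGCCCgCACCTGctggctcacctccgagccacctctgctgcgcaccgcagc
CLDN3: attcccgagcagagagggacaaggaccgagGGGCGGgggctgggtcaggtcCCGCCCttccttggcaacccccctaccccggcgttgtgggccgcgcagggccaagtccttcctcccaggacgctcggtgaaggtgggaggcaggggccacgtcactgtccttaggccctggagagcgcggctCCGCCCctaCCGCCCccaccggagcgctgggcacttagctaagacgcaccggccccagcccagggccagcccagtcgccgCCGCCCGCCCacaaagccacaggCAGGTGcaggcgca

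The CLDN4 window held 0 E-boxes and 1 GC box. The inner CLDN7 window held 5 E-boxes, at positions -174, -135, -20, -9 and 6 from the start, and 2 GC boxes. The first base of the transcript counts as 1 here. The outer CLDN7 window held neither. The CLDN3 window held 1 E-box and 6 GC boxes, the last 2 of which overlap. Of all 35116 RefSeq windows of this length, 20.6% held at least 1 E-box of this form, 45% held a GC box and 0.094% held 5 or more E-boxes. The cut of 5 was taken from the inner CLDN7 window, which held the most of the 16 member windows. The windows of CLDN4 and of the inner CLDN7 start differed in these letters. At the outer start CLDN7 held 0 E-boxes, as CLDN4 did. Any part of these letters in the shared profile was not tested. Sites for CDX factors (CAATAAA) and Grainyhead-like factors (AACCNGTT) were found in 0 of the 16 windows of the 9 measured members, against 4% and 1.73% of all windows. A missing match says only that these letters are not in the window, and which start Huh7 cells use was not measured.

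SNAI2, an E-box binding repressor, was at 4.13 in CD133+, 5.27 in CD133-, 4.85 in ALDH+ and 4.29 in ALDH- cells. Of its 4 values 3 lay below the floor. Set against the floor, SNAI2 was at least 1.22-fold lower in CD133+ cells, and the ALDH sort, with both arrays below the floor, gave no fold. SNAI1 (Snail), above the floor on every array, differed by -0.01 and -0.31. In the ALDH sort SNAI1 thus had the sign of CLDN4 and CLDN7. ZEB1 (-0.47 and 0.27), ZEB2 (-0.30 and 0.29) and TWIST1 (-0.11 and 0.24) had the signs of SNAI2. ZEB2 lay below the floor on every array and ZEB1 on every array but ALDH+. CDX2, an intestinal transcription factor, was at 8.53, 7.63, 7.90 and 8.58 in the same order of fractions and differed by 0.90 and -0.68. CDX1, its relative, was higher in both positive fractions, by 0.35 and 0.42. KLF5, another factor of this list, had the signs of CDX2, with differences of 0.68 and -0.33. Of 13 measured transcription factors known to act on claudin genes, 10 were above the floor in each sort. In CD133+ cells 4 of them were higher, against 42.9% of all genes above the floor, and in ALDH+ cells 4 were lower, against 51.5%. Their medians over the 13 were -0.02 in the CD133 and 0.10 in the ALDH sort. None of them reached 2-fold once SNAI2 was set against the floor.

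Among the other sealing claudins, CLDN1 was hardly different within either sort. CLDN1, the main sealing claudin of hepatocytes and a co-receptor of hepatitis C virus, was at 10.5 in CD133+, 10.4 in CD133-, 9.90 in ALDH+ and 10.2 in ALDH- cells. Its differences were 0.13 and -0.27. CLDN3, the neighbour of CLDN4, was at 6.87 in CD133+, 7.18 in CD133-, 7.31 in ALDH+ and 7.56 in ALDH- cells. It was lower in both positive fractions, by differences of -0.30 and -0.25, and so did not share the turn that CLDN4 showed between the sorts. CLDN6, an oncofetal claudin of embryonic epithelia, was at 6.2 in CD133+, 6.24 in CD133-, 5.76 in ALDH+ and 6.12 in ALDH- cells. Its difference was -0.04 in the CD133 sort, with the sign turning when differences were centred or fitted with loess, and -0.35 in the ALDH sort. CLDN9, a close paralog of CLDN6 that could share probe signal, differed by 0.18 and -0.01. CLDN14, a barrier claudin known from the inner ear and kidney, was at 3.16, 2.93, 2.71 and 3.38 in the same order of fractions. All 4 values lay below the floor, and its differences of 0.23 and -0.66 were both measured at that dim level.

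The channel-forming claudins gave small differences. CLDN2, a channel for cations and water, was at 4.95 in CD133+, 4.50 in CD133-, 5.01 in ALDH+ and 5.38 in ALDH- cells. Its differences of 0.45 and -0.37 had the signs of CLDN4 and CLDN7, but both CD133-sort arrays lay below the floor. CLDN15, the cation channel of the small intestine, was at 5.66 in CD133+, 5.54 in CD133-, 5.72 in ALDH+ and 5.77 in ALDH- cells. It had the smallest range of the 9 members over the 4 arrays, 0.23, with differences of 0.12 and -0.06.

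TJP1, the ZO-1 scaffold, was at 6.85 in CD133+, 6.84 in CD133-, 6.64 in ALDH+ and 7.02 in ALDH- cells. Its CD133 difference was 0.01 and its ALDH difference -0.38. The fractions of the CD133 sort therefore lay between those of the ALDH sort. TJP1 has several RefSeq starts, and a single probe does not tell its transcripts apart.

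Over the 9 measured members, the median difference in the ALDH sort was -0.37, and 9 were lower in ALDH+ cells. Over all 18377 genes, dim ones included, the median was 0.03 and 46.1% were lower. Among the 8 members above the floor, 8 were lower with a median of -0.36. Of all genes above the floor 51.5% were lower, with a median of -0.01. In the CD133 sort the median over the members was 0.13, with 7 higher and 2 lower, against -0.01 over all genes, of which 49% were higher. Among the 7 members above the floor there, 5 were higher with a median of 0.12, against 42.9% and -0.04 for all genes above the floor. Claudins that differed in opposite directions in the CD133 sort, CLDN3 and CLDN4, were both among those lower in ALDH+ cells (-0.25 and -1.08). Whether it exceeds the spread between cultures was not tested, since each fraction had 1 array.

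**Figure D2:**
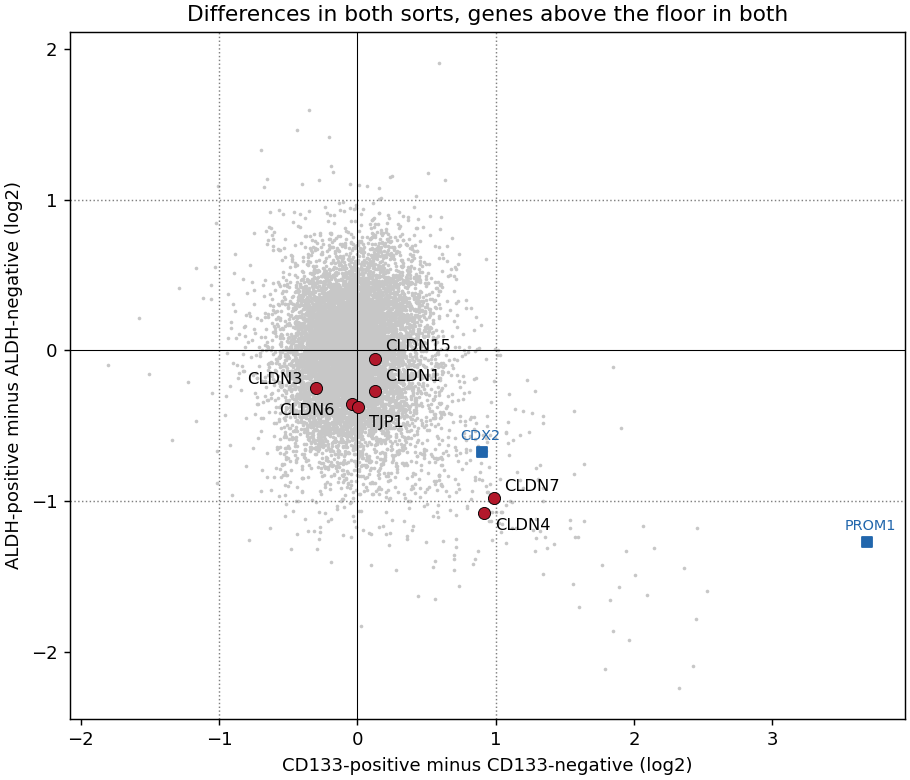
Difference in the CD133 sort (x axis, log2) against that in the ALDH sort (y axis, log2) for 11293 genes above the floor in both (grey), with the 7 members among them in red, PROM1 and CDX2 in blue, and dotted lines at 2-fold. CLDN4 and CLDN7 lie together at the lower right (0.92 and -1.08, 0.99 and -0.98), and the other 5 members lie near the centre, below 0 on the y axis.

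Levels also differed between the sorts. Of the 8 members above the floor in at least 1 sort, 5 had CD133-sort arrays that did not overlap the ALDH-sort arrays. CLDN1 and CLDN6 were higher on both CD133-sort arrays, and CLDN2, CLDN3 and CLDN15 were higher on both ALDH-sort arrays. This happened for 45.2% of 12177 genes, so the share among the members was near the background. For CLDN4, CLDN7 and TJP1 the arrays of the sorts overlapped. Sort and any difference in culture or handling between the sorts cannot be told apart.

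CLDN4 had the largest range of the members over the 4 arrays, 1.69, followed by CLDN7 with 1.65. Among 12176 other genes above the floor on at least 1 array, those nearest to CLDN4 were B3GNT5 (distance 0.04), CLDN7 (0.09), APOD (0.10), CKB (0.13) and TMEM45B (0.13). The distance is Euclidean, over 4 log2 values with each gene centred on its own mean. B3GNT5 encodes a glycosyltransferase of glycolipid synthesis, APOD a lipid-binding apolipoprotein and CKB the brain-type creatine kinase. CLDN7 was the 2nd nearest of 12176 genes to CLDN4, whereas CLDN2 was 212th, CLDN3 2180th and CLDN1 7190th. CDX2 was 181st. Some of these values lay below the floor, among them CLDN4 and B3GNT5 in CD133- cells, APOD in CD133- and ALDH+ cells and both CD133-sort values of CLDN2. With such values raised to the floor, an alternative chosen after seeing the data, B3GNT5 was still the nearest, CLDN7 was 6th, TMEM45B 20th, APOD 140th and CLDN2 830th. With 4 arrays, this likeness describes these samples and has no test.

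**Figure D3:**
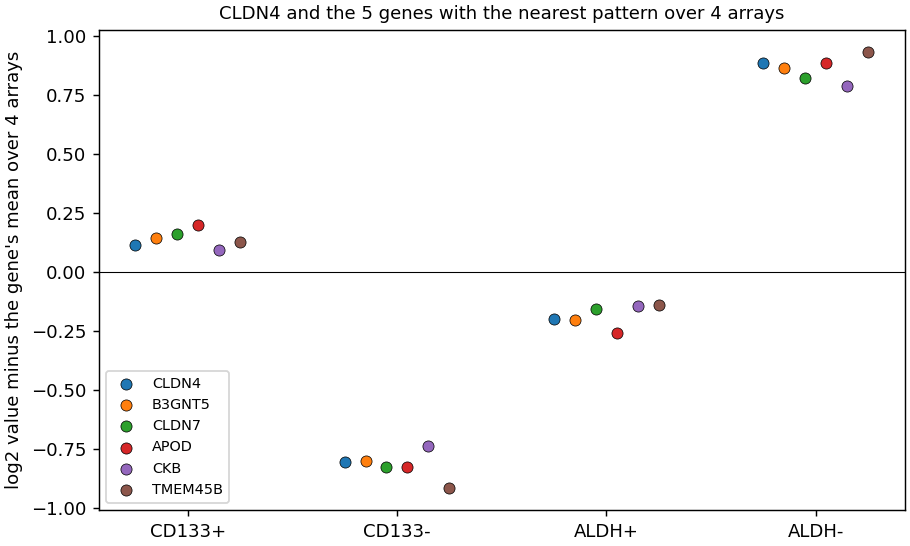
Log2 value minus the gene's own mean (y axis) on the 4 arrays (x axis) for CLDN4 and the 5 genes nearest to it, 1 point per gene and array. The 6 genes run together, highest in ALDH- and lowest in CD133- cells, with CLDN7 at a distance of 0.09 from CLDN4.

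The remaining claudins did not show the profile of CLDN4 and CLDN7. Of 16 further claudins, 15 were measured and 7 lay above the floor in each sort. None of the 7 differed 2-fold. In the ALDH sort 5 of them were higher and 2 lower in ALDH+ cells, where 48.5% of all genes above the floor were higher. CLDN5, the claudin of endothelium, was at 5.81 in CD133+, 5.34 in CD133-, 5.95 in ALDH+ and 5.43 in ALDH- cells, higher in both positive fractions by 0.47 and 0.52. CLDN19 differed by -0.01 and 0.59, and CLDN11 by 0.26 and 0.12. The median over all 15 was 0.04 in the CD133 and 0.12 in the ALDH sort.

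Other membrane proteins of tight junctions differed little. Of 11 listed, 10 were measured, OCLN (occludin) not among them, and 6 were above the floor in each sort, none at 1.5-fold. LSR, which marks corners where 3 cells meet, differed by -0.01 and -0.41. ILDR1, a relative of LSR, differed by 0.35 and 0.06, and MARVELD3 by 0.30 and 0.49. Of 24 scaffold and polarity genes 20 were measured, all 20 above the floor, and 0 reached 2-fold in either sort. The median was -0.06 in the CD133 and -0.13 in the ALDH sort. In ALDH+ cells 14 of 20 were lower, against 51.5% of all genes above the floor. CGNL1 (paracingulin), a junction scaffold, was at 5.48 in CD133+ and 6.23 in CD133- cells, a difference of -0.75, the opposite of CLDN4 in that sort. PATJ, a polarity scaffold that binds claudins and ZO-3, differed by 0.34 and -0.50. AMOT, an angiomotin, differed by -0.30 and 0.60, with ALDH- cells below the floor.

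Desmosome genes, which serve mechanical adhesion between cells, mostly had the signs of CLDN4 and CLDN7 at smaller size. Of 8 measured, all above the floor, 7 were higher in CD133+ cells, against 42.9% of all genes above the floor, and 7 lower in ALDH+ cells, against 51.5%. Both signs held together for 6 of them, but the share of all genes with both signs was not counted. In the CD133 sort 0 of the 8 reached 1.5-fold. PKP3 (plakophilin 3) was higher in both positive fractions, by 0.14 and 0.62 with ALDH- cells below the floor, and PERP differed by -0.04 and -0.03. The medians were 0.15 and -0.28, with 0 genes at 2-fold. DSG2, a desmosomal cadherin, was at 6.19 in CD133+, 6.12 in CD133-, 5.97 in ALDH+ and 6.88 in ALDH- cells, a difference of 0.06 and then -0.90. DSC2, its partner cadherin, differed by 0.16 and -0.78. PKP2 (plakophilin 2) differed by 0.40 and -0.26 and JUP (plakoglobin) by 0.29 and -0.29. Adherens junction genes, 8 of 9 measured, had medians of 0.03 and -0.13 and 0 at 2-fold. E-cadherin, from CDH1, differed by 0.10 and -0.44. Among the nectins, NECTIN1 differed by -0.20 and 0.49, NECTIN2 by 0.33 and -0.08 and NECTIN3 by -0.20 and -0.15.

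**Figure D4:**
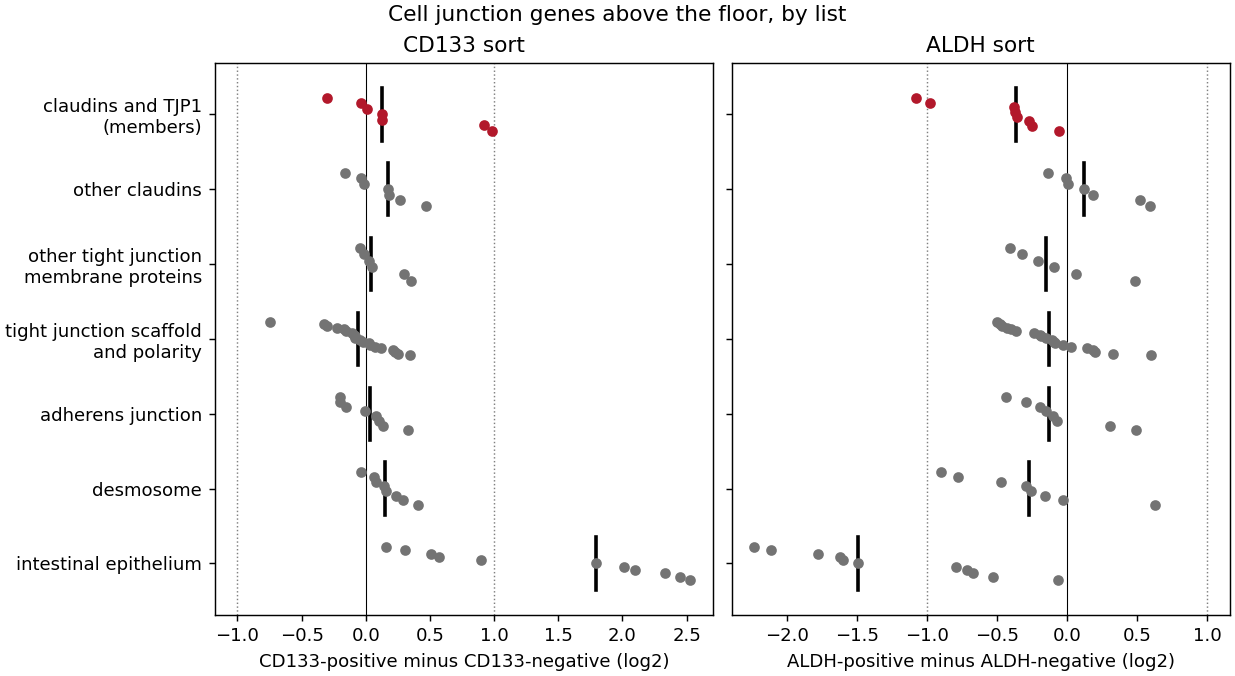
Difference (x axis, log2) in the CD133 sort (left) and the ALDH sort (right) for genes above the floor, by list (y axis), 1 point per gene, with a black bar at the list's median over these genes and dotted lines at 2-fold. In the ALDH sort CLDN4 (-1.08) and CLDN7 (-0.98) sit apart at the left of the members, DSG2 (-0.90) and DSC2 (-0.78) at the left of the desmosome list, and the intestinal genes reach further in both sorts.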

How the data were processed

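RNA of 4 sorted Huh7 fractions was labelled with biotin by the Affymetrix protocol, per the labels' protocols. The authors deposited log2 expression values made with RMA, a robust averaging over probes, according to the submitters' processing notes. That they are log2 follows from their range, 0.556 to 13.5. The software, its annotation and the build are not given in the sources used here. RMA forces arrays towards 1 distribution and compresses differences of dim probes.

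Of 28869 probes, 19310 had exactly 1 gene symbol in the platform annotation, and 19279 of these matched a current gene identifier. A gene took its probe with the highest mean, and each measured member had 1 probe. A gene counted as above the floor in a sort where the brighter array reached 4.98. Calls were made by fold alone, at 2-fold and 1.5-fold, with no test. Named were all members, genes of the lists at 2-fold, otherwise the 2 largest of a list in each sort, and the 5 genes nearest to the member of largest range. Of the cell type lists only genes at 2-fold are named by this rule. PTPRC, ALB, AFP, TTR, FABP2, PKP3, PERP, CLDN9, KLF5, ALDH3A1 and ALDH1B1 were named after their values were seen. So were SNAI1, ZEB1, ZEB2 and TWIST1. Members and lists were chosen with earlier results of these data known. Promoters came from RefSeq, with windows for all 9 measured members. The scripts were tested on simulated data. Alternatives were another fold, other floors, the mean over probes, centring, quantile normalization and loess (span 0.4). Python 3.11.15, statsmodels 0.14.6 and matplotlib 3.10.9 were used.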

Additional observations from a re-analysis of the deposited data

Results flagged for a closer look

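CLDN4 and CLDN7 had opposite differences in the sorts. The CD133 difference minus the ALDH difference was 2.0 for CLDN4 and 1.97 for CLDN7 on the log2 scale. Both were singled out because each was at least 1.5-fold higher in one positive fraction and lower in the other. The difference between the sorts was not tested, since each fraction had 1 array. The sign of the ALDH difference rests on labels that the ALDH transcripts did not check. With those labels exchanged, CLDN4 and CLDN7 would each be higher in CD133+ and in ALDH+ cells.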

How the results depend on the processing

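CLDN4 and CLDN7 kept their direction in both sorts under the 4 alternatives that can move a difference: dim values set to the floor, centring, quantile normalization and loess. The others alter only which genes count. With the floor at the 75th percentile, 6.48, CLDN4 was above it in the ALDH sort only. CLDN4 ran from 0.76 to 0.96 in the CD133 sort, the lowest with the floor set in, and from -1.12 to -1.07 in the ALDH sort. CLDN7 ran from 0.97 to 1.04 and from -0.98 to -0.93. At 1.5-fold, 2 members were higher in CD133+ cells (CLDN4 at 0.92 and CLDN7 at 0.99) and 2 lower in ALDH+ cells (CLDN7 at -0.98 beside CLDN4). CLDN7 passed 2-fold in the CD133 sort after centring (1.03) and after loess (1.04), which made 1 member higher there in each. No other member passed 2-fold under any of them. The list of other tight junction membrane proteins moved in the ALDH sort from a median of 0.02 to -0.15 when dim members were left out. Each measured member had 1 probe, so treating probes singly or by their mean changed nothing. No paired analysis was possible because each group had 1 array. Signal below the floor limits CLDN2 and CLDN14 most, CLDN14 on every array and CLDN2 on both CD133-sort arrays.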
